A study of Mus musculus with 41 samples.

Results

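The proteasome genes described here were all genes of the array whose symbol begins with Psma, Psmb, Psmc or Psmd followed by a number. They made up 40 of the 18193 genes with 1 symbol on the array, and 80 of its 45101 probe sets measured them. Each gene was read at its brightest probe set by the mean deposited intensity over 41 arrays. The Psma and Psmb genes (19 genes) encode the core particle, Psmc genes (6 subunits) the ATPase ring, and Psmd genes (14 genes) the other parts of the regulatory particle or its assembly chaperones. The symbol of Psmc3ip also matches the pattern, but its protein is a cofactor of meiotic recombination and no subunit, so it was kept apart from the ATPases, leaving 39 genes.

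Hippocampal RNA came from 41 male mice of the inbred strain C57BL/6J, with no transgene and no drug named in the labels, and each mouse gave 1 array. All mice went through the same behavioural battery, which began at an age of 10 weeks and ended with passive avoidance in weeks 37 to 38, and tissue was taken 1 month later. The groups are classes of cognitive ranking: 8 mice were ranked low, 12 medium and 5 high by both ranking systems, 14 were ranked inconsistently and 2 lacked complete behavioural data. The ranks were observed and not assigned, the high group is small, and whole hippocampus mixes neurons, glia and vessels. Inconsistent replicate 2 also carries a description as consistently medium.

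Most proteins that a cell destroys on purpose are tagged with ubiquitin and cut up by the 26S proteasome. Its core is a stack of rings: outer rings of alpha subunits form the gate, and inner rings of beta subunits carry the cutting sites. The regulatory particle caps the core. Its ATPases unfold the substrate, its base holds ubiquitin receptors, and its lid removes the ubiquitin chain. In the hippocampus, proteasome activity is known to be needed for lasting synaptic plasticity and for the consolidation of memory. When cells meet interferon, the catalytic beta subunits can be replaced by those of the immunoproteasome.

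Levels below are log2(intensity + 16) after quantile normalization over the 41 arrays, and a difference is between group means on that scale. Of all probe sets, 22519 were bright enough to be tested, at a mean level of at least 5.74. Among the proteasome genes 36 had a tested probe set and were read at the brightest one, and 35 of these genes encode subunits or their chaperones. Psma8, an alpha subunit of the testis, Psmb11, the catalytic subunit of the thymus, and the immunoproteasome genes Psmb8 and Psmb9 lay below that level. Arrays correlated with each other at 0.949 to 0.993 (median 0.986), and medium replicate 9 held the brightest striatum markers, with a mean of 8.53. The spike-in control probes split the arrays into 3 sets of 7, 10 and 24, which the labels do not name. Of the high arrays 4 lay in the third set and 1 in the second. Choroid plexus markers had means of 5.83 to 6.25 in high arrays against 5.64 to 9.30 in low and 5.77 to 9.23 in medium arrays. Their mean was above 7.41 in 11 of the 41 arrays, called choroid-bright, and in no high array. With these arrays dropped, 28 of 35 subunits had a higher mean in high than in low mice (median difference 0.0529). For high minus medium the count was 28 (0.0665), and for medium minus low 16 (-0.0112). With all ranked arrays the counts were 27, 30 and 6. A causal part of the markers was not tested. In bulk tissue, fewer cells of a type and less RNA per cell cannot be told apart.

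Proteasome promoters are shown first, because the subunits varied together in part and the regulators of the complex are measured further on. A RefSeq promoter of 300 bases, from 250 before to 50 after the start on build GRCm38.p6, was found for 32 of 38 genes looked up. The capitals mark the match in each sequence.
Psmb5, chr14:54618009-54618067, minus strand: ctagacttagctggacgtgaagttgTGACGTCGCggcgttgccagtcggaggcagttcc
Psmd9, chr5:123228134-123228189, plus strand: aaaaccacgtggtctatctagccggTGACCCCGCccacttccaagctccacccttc
Psmb3, chr11:97703366-97703420, plus strand: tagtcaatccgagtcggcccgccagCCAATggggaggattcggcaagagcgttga
Psma2, chr13:14613163-14613217, plus strand: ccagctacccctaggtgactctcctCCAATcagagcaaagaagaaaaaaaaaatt
The first pair holds the antioxidant response element, searched as TGACNNNGC on both strands, which Nfe2l1 and Nfe2l2 are known to bind. It was found in 5 of 32 promoters (15.6%), those of Psmb5, Psmb6, Psmc6, Psmd12 and Psmd9, and in 14.0% of all 27025 promoters. The second pair holds the CCAAT box, the letters that NF-Y is known to bind, searched as CCAAT on both strands and found in 13 of 32 promoters (40.6%) against 41.1% of all. The core genes had it in 8 of 15 and the non-ATPase genes in 3 of 12. The interferon-stimulated response element, searched on both strands, was in the promoters of Psmb3, Psmd4 and Psmd9, 3 of 32 (9.38%) against 3.99% of all. It was not found in the windows of Psmb8, Psmb9 or Psmb10. Among the 9121 tested genes with a promoter, the 3 elements were found in 16.8%, 43.0% and 3.52%, in the order given above. A match is a description of letters, not of binding.

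High and low mice are the ends of the ranking. None of the 35 tested subunits passed limma's test at an adjusted p of 0.05, beside 0.00888% of all tested probe sets. The smallest adjusted p was 0.549. Differences were small and mostly above 0: 27 of 35 subunits had a higher mean in high mice, against 52.1% of all tested probe sets. Their median difference was 0.044, a fold near 1, while all tested probe sets had a median of 0.0051. By part, 11 of 15 core genes, 6 of 6 ATPases and 10 of 14 non-ATPase genes had a difference above 0, with medians of 0.039, 0.045 and 0.044. At an unadjusted p under 0.05 there were 2 subunits, Psmb4 and Psmd14, both above 0, beside 8.16% of all tested probe sets and 4.58% for those also above 0. No subunit had high and low arrays that did not overlap, beside 0.502% of all.

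The comparison of high with medium mice used the same 5 high arrays, so its values are not independent of those above. Again 0 subunits passed limma's test, beside 0.0311% of all, and the smallest adjusted p was 0.200. A difference above 0 was seen in 30 of 35 subunits, against 51.9% of all tested probe sets, with a median of 0.056 against 0.0053. The core gave 13 of 15 (median 0.082), the ATPases 4 of 6 (0.054) and the non-ATPase genes 13 of 14 (0.071). At an unadjusted p under 0.05 there were 6 subunits, Psmb4, Psma3, Psmc5, Psmd5, Psmd6 and Psmd14, all above 0, beside 13.2% of all and 7.30% for those also above 0. No subunit had groups that did not overlap, beside 0.395% of all. When each array was centred on its median in place of quantile normalization, 9 subunits passed in this comparison, beside 4.29% of all tested probe sets. They were Psma3, Psmb4, Psmb5, Psmb6, Psmc5, Psmd5, Psmd6, Psmd8 and Psmd14, with differences from 0.22 to 0.35 and limma adjusted p from 0.0144 to 0.0449. That scaling moved the median of all tested probe sets to 0.066 and put 68.5% of them above 0. With no normalization 3 of 35 subunits were above 0, their median was -0.085 and that of all probe sets was -0.17. Relative to the median of all, the subunits lay higher by 0.051, 0.11 and 0.084 under quantile, median and no normalization.

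Medium and low mice, the pair without the high group, gave differences of the other sign. Here 6 of 35 subunits were above 0, against 49.9% of all tested probe sets, and the median was -0.024 against -0.0003. With no normalization the subunits' median was 0.086 and that of all tested probe sets 0.11, so relative to all the subunits stood at -0.020 there and at -0.024 under quantile normalization. No subunit passed limma's test or had an unadjusted p under 0.05, beside 0.00% and 3.10% of all (1.58% for those also above 0), and adjusted p were 0.998 or higher. Leaving out low replicate 8 raised the count above 0 to 12. It rose to 16 (median -0.0112) when the 11 choroid-bright arrays were dropped, and to 15 (-0.0077) in the third spike-in set alone. The lean below 0 was thus weak in these 2 settings.

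The mean over the 35 subunits in each array shows how small these differences were. The 5 high mice averaged 10.16 ± 0.02 (SD, n = 5), the 8 low mice 10.12 ± 0.04 (SD, n = 8) and the 12 medium mice 10.10 ± 0.04 (SD, n = 12). High arrays ran from 10.13 to 10.18, low arrays from 10.06 to 10.17 and medium arrays from 10.02 to 10.15, so each pair of groups overlapped. Inconsistently ranked mice averaged 10.12 ± 0.03 (n = 14). Within the third spike-in set, of 4 high, 5 low and 5 medium arrays, 25 of 35 subunits were above 0 for high minus low (median 0.018) and 24 for high minus medium (0.038), while all tested probe sets had medians of 0.0062 and 0.0049. In high minus low there, the core had 9 of 15 above 0 and a median of 0.0066, near that of all tested probe sets. The ATPases had 6 of 6 and 0.016, and the non-ATPase genes 10 of 14 and 0.043. In the second set, with 1 high, 2 low and 5 medium arrays, the counts were 25 and 31 (medians 0.037 and 0.086). The first set held no high array.

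**Figure D1:**
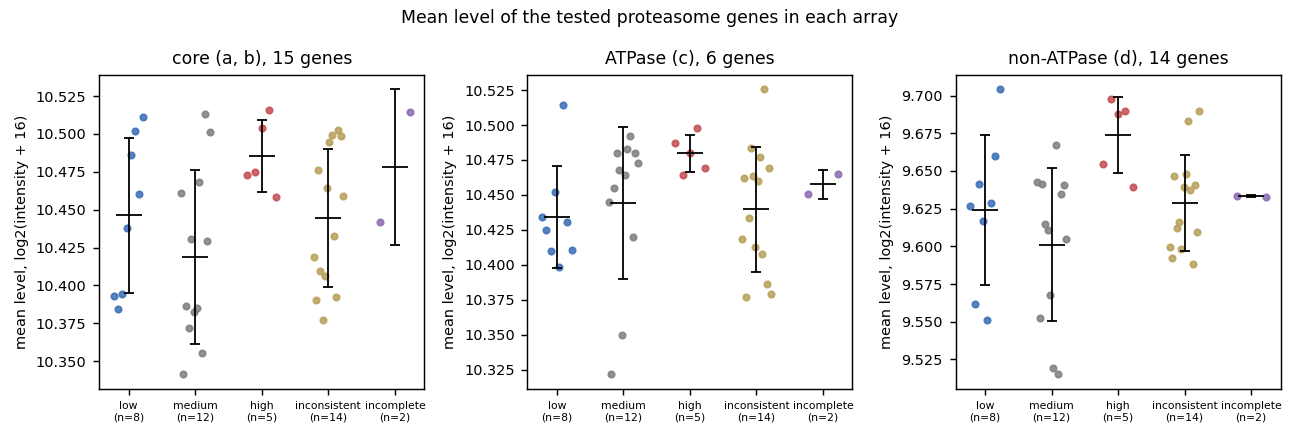
Mean level, as log2(intensity + 16), of the 15 core, 6 ATPase and 14 non-ATPase genes tested, with 1 point per array and bars for the mean and SD of each group. High arrays lie in the upper part of the range in each panel, at 10.46 to 10.52, 10.46 to 10.50 and 9.64 to 9.70, and overlap with the low and medium arrays. The axes do not start at 0.

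**Figure D2:**
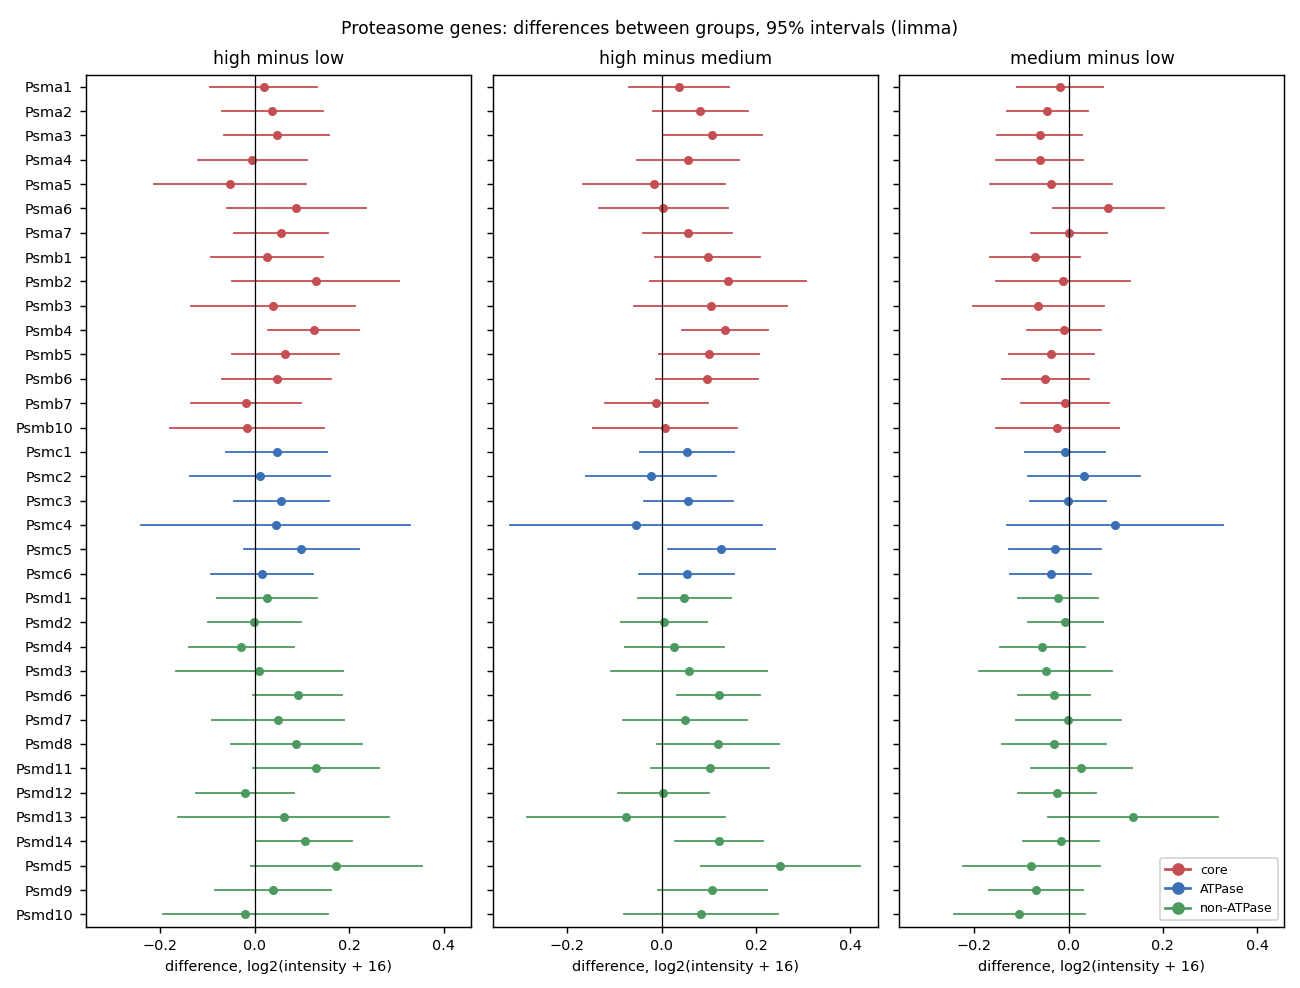
Difference between group means on the log2(intensity + 16) scale for each tested subunit, with the 95% interval from limma, coloured by part of the complex. Most points lie above 0 in the first 2 panels and below 0 in the third, and few intervals leave out 0.

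The alpha ring is the gate of the core particle. Of its 7 tested genes, 5 had a higher mean in high than in low mice (median 0.037) and 6 a higher mean than in medium mice (0.055). Psma3 had the smallest unadjusted p of the ring in high minus medium. Its levels in the high arrays were 11.31, 11.30, 11.39, 11.45 and 11.25, those in medium arrays ran from 11.06 over a median of 11.25 to 11.35, and those in low arrays from 11.21 over 11.25 to 11.41. All 5 high arrays were above the medium mean, but the groups overlapped. The difference was 0.11 ± 0.05 (SE) against medium, with a limma adjusted p of 0.364, and 0.046 ± 0.054 against low.

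Psma6 leaned another way, since both high and medium mice had higher means than low mice, by 0.088 ± 0.072 and 0.085 ± 0.057 (limma adjusted p 0.786 and 0.998). Its high arrays spread widely, at 10.99, 11.08, 11.05, 11.16 and 10.69, around low arrays of 10.78 to 11.08. Psma5 was the alpha gene with a lower mean in high mice in both comparisons, by -0.053 ± 0.078 against low and -0.016 ± 0.073 against medium. Psma1, Psma2, Psma4 and Psma7 differed by -0.0057 to 0.056 from low and by 0.037 to 0.082 from medium.

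Of the beta ring genes without a cutting site, Psmb4, which is known to help join the core from its parts during assembly, had the smallest p of all subunits in high minus low. Its high arrays read 11.54, 11.53, 11.64, 11.61 and 11.61. Low arrays ran from 11.37 over a median of 11.47 to 11.55, and medium arrays from 11.33 over 11.46 to 11.57. Each high array was above both group means, and 2 of them, at 11.54 and 11.53, lay within the low range. The difference was 0.12 ± 0.05 (SE) against low, a fold of 1.09 (limma p 0.0139, adjusted 0.549), and 0.13 ± 0.04 against medium (p 0.00521, adjusted 0.202). In the second spike-in set it was 0.083 against low, and in the third 0.12. The second probe set of Psmb4, also bright at a mean level of 10.98, differed the other way. Its differences were -0.086 against low and -0.16 against medium (limma p 0.276 and 0.0338, adjusted 0.809 and 0.338).

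Psmb2 differed by 0.13 ± 0.09 from low and 0.14 ± 0.08 from medium (limma adjusted p 0.721 and 0.459). Its high arrays read 9.36, 9.60, 9.58, 9.57 and 9.58, so that 4 arrays lay close together and 1 fell well under them. Low arrays ran from 9.27 to 9.61 and medium arrays from 9.04 to 9.67. Psmb1 had means of 10.68 in high, 10.66 in low and 10.58 in medium mice. It differed by 0.026 ± 0.058 from low, by 0.098 ± 0.054 from medium and by -0.072 ± 0.047 in medium minus low (limma adjusted p 0.941, 0.444 and 0.998). Psmb3 differed by 0.039 from low and 0.10 from medium.

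The constitutive cutting sites belong to Psmb6, Psmb7 and Psmb5, which cut after acidic, basic and hydrophobic residues. Psmb5 read 10.55, 10.61, 10.55, 10.53 and 10.53 in the high arrays. Low arrays ran from 10.28 over a median of 10.51 to 10.60, and medium arrays from 10.27 over 10.45 to 10.57. The high arrays sat in the upper part of both ranges and overlapped with them. The difference was 0.065 ± 0.055 (SE) against low and 0.10 ± 0.05 against medium, with limma adjusted p of 0.797 and 0.402.

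Psmb6 read 10.22, 10.31, 10.16, 10.25 and 10.28 in high, 10.07 to 10.37 in low and 10.04 to 10.31 in medium arrays, medians 10.19 and 10.14 in the latter. It differed by 0.047 ± 0.056 from low and 0.096 ± 0.052 from medium (limma adjusted p 0.868 and 0.436). Psmb7 did not share this lean. Its high arrays read 11.75, 11.60, 11.68, 11.60 and 11.72. The highest of them, 11.7502, lay just above the highest low array, 11.7474, and the other 4 lay inside the low range. The differences were -0.018 ± 0.056 and -0.011 ± 0.053, with 95% intervals from -0.13 to 0.098 and from -0.12 to 0.097. Psmb7 was also the catalytic gene least tied to the rest, with a median correlation of 0.058 with the other subunits over the arrays, against 0.30 for Psmb6 and 0.14 for Psmb5.

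The immunoproteasome counterparts are Psmb9, Psmb10 and Psmb8, in the same order of cutting sites. On chromosome 17 Psmb9 and Psmb8 lie beside Tap1 and Tap2, which carry the cut peptides towards MHC class I molecules. Only Psmb10 was bright enough to be tested. It read 8.41, 8.55, 8.54, 8.44 and 8.47 in high arrays, 8.33 to 8.66 in low and 8.28 to 8.92 in medium arrays, where medium replicate 9 alone gave the highest value. The differences were -0.016 ± 0.080 (SE) from low and 0.0069 ± 0.074 from medium, with 95% intervals from -0.18 to 0.15 and from -0.15 to 0.16.

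Psmb8 lay just under the level needed for a test, at a mean of 5.70. High arrays read 5.571, 5.501, 5.549, 5.539 and 6.051, medium arrays ran from 5.42 over a median of 5.62 to 5.87, and low arrays from 5.37 over 5.90 to 6.14. Low arrays were mostly higher than those of the other 2 groups, with 1 low array below all high ones. With no filter on dim probe sets Psmb8 differed by -0.22 ± 0.11 (SE) in high minus low and by -0.22 ± 0.09 in medium minus low (limma adjusted p 0.715 and 0.999). Psmb9, at a mean of 5.66, read 5.69, 5.92, 5.49, 5.63 and 5.69 in high arrays, 5.49 to 5.96 in low and 5.31 to 6.13 in medium arrays, with a difference of -0.014 ± 0.11 from low. At such dim levels the offset of 16 understates changes.

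**Figure D3:**
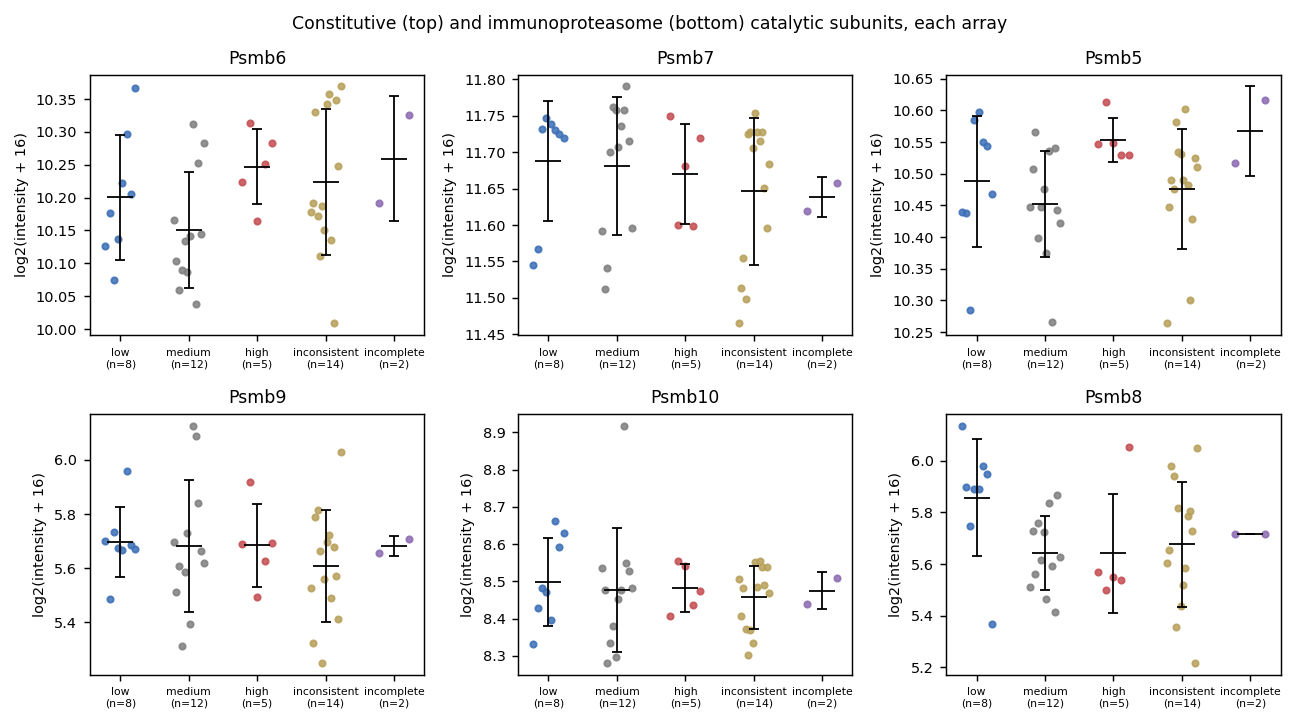
Level, as log2(intensity + 16), of the constitutive catalytic genes Psmb6, Psmb7 and Psmb5 (top) and the immunoproteasome genes Psmb9, Psmb10 and Psmb8 (bottom), with 1 point per array and bars for the mean and SD. The high arrays of Psmb5 lie between 10.53 and 10.61, and low arrays of Psmb8 reach 6.14; each panel has its own axis, which does not start at 0.

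Across the 41 arrays Psmb9 and Psmb10 gave a Pearson r of 0.42 (permutation p 0.00695, adjusted over 3 pairs 0.0208) and a Spearman rho of 0.28 (permutation p 0.0733, adjusted 0.220). Without the 2 arrays farthest from the median of Psmb9, r was 0.44 (permutation, adjusted p 0.0188). It rested on medium replicate 9, without which r was 0.27 (permutation p 0.0910, adjusted 0.137). Within the spike-in sets r was -0.020, 0.67 and 0.20, over 7, 10 and 24 arrays. Psmb8 had r of 0.23 with Psmb9 and -0.089 with Psmb10 (permutation, adjusted p 0.219 and 0.582).

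The 6 ATPases form the ring that unfolds substrates and threads them into the core. All 6 had a higher mean in high than in low mice, by 0.011 to 0.099, and 4 a higher mean than in medium mice. Psmc5, an ATPase that the kinase CaMKII is known to phosphorylate in synaptic plasticity, had the smallest p in both. Its high arrays read 10.68, 10.78, 10.75, 10.84 and 10.87, low arrays ran from 10.52 over a median of 10.69 to 10.83, and medium arrays from 10.40 over 10.68 to 10.74. All high arrays but the first lay above every medium array. The difference was 0.13 ± 0.06 (SE) from medium (limma p 0.0307, adjusted 0.329) and 0.099 ± 0.059 from low (adjusted 0.691).

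Psmc3, whose subunit helps open the gate of the core, differed by 0.056 ± 0.049 from low and 0.056 ± 0.046 from medium. Psmc1 differed by 0.046 ± 0.052 and 0.054 ± 0.048, and Psmc6 by 0.015 and 0.053. In medium minus low Psmc6 differed by -0.038 ± 0.042. Limma adjusted p for these genes were between 0.619 and 0.998. Psmc4 was the least steady subunit, with low arrays from 9.61 to 10.52 and a within-group SD of 0.26. Its differences of 0.044 ± 0.14 from low and -0.055 ± 0.13 from medium have 95% intervals reaching from -0.24 to 0.33 and from -0.32 to 0.21.

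In the base of the regulatory particle, Psmd1 and Psmd2 are the large scaffold subunits that dock ubiquitin carriers, and Psmd4 is a ubiquitin receptor. They showed little: from low they differed by 0.026, -0.0016 and -0.028, and from medium by 0.048, 0.0050 and 0.027, with SEs of 0.045 to 0.054. Psmd2 had the narrowest interval against low among these, from -0.10 to 0.097.

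Of 8 lid genes, 7 had a higher mean in high than in low mice (median 0.075) and 7 a higher mean than in medium mice (0.080). Psmd14 encodes the lid enzyme that cuts the ubiquitin chain from the substrate. Its high arrays read 10.90, 11.00, 11.09, 11.14 and 10.95, low arrays ran from 10.85 over a median of 10.88 to 11.08, and medium arrays from 10.84 over 10.90 to 10.98. The high arrays at 11.09 and 11.14 were above all low and medium arrays, while the one at 10.90 lay within both ranges. The difference was 0.11 ± 0.05 (SE) from low (limma p 0.0393, adjusted 0.596) and 0.12 ± 0.05 from medium (p 0.0130, adjusted 0.262). In the second spike-in set, which holds 1 high array, the difference from low was 0.0063, and in the third it was 0.14.

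Psmd6, a scaffold subunit of the lid, was the steadiest subunit, with a within-group SD of 0.060. High arrays read 10.66, 10.67, 10.73, 10.68 and 10.64, low arrays ran from 10.51 over 10.59 to 10.64, and medium arrays from 10.35 over 10.56 to 10.65. High arrays lay at the top, and the lowest of them, at 10.64, overlapped with the highest low and medium arrays. The difference was 0.090 ± 0.046 (SE) from low (limma p 0.0601, adjusted 0.628) and 0.12 ± 0.04 from medium (p 0.00926, adjusted 0.234). The next brightest probe set of Psmd6, nearly as bright at a mean level of 10.52, differed by 0.044 from low and 0.0071 from medium (limma p 0.535 and 0.914).

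Psmd11, a lid subunit known to limit how many 26S particles assemble, read 11.16, 11.23, 11.38, 11.22 and 11.17 in high arrays. Low arrays ran from 10.94 over a median of 11.04 to 11.33 and medium arrays from 10.99 over 11.12 to 11.26. All 5 high arrays were above both group means, and the ranges overlapped. It differed by 0.13 ± 0.07 (SE) from low and 0.10 ± 0.06 from medium (limma adjusted p 0.626 and 0.480). The dimmer tested probe sets of Psmd11 differed by 0.069, 0.35 and 0.041 from low and by 0.033, 0.44 and 0.094 from medium. Psmd8 differed by 0.088 ± 0.067 and 0.12 ± 0.06 (adjusted 0.768 and 0.422). Psmd13 was the lid gene with the lowest difference from medium, -0.076 ± 0.10, and the highest in medium minus low, 0.14 ± 0.09 (adjusted 0.998), where 9 of 12 medium arrays were above the low mean. Psmd3, Psmd7 and Psmd12 differed by -0.021 to 0.050 from low and by 0.0031 to 0.058 from medium.

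Psmd5, Psmd9 and Psmd10 encode chaperones that hold ATPases during assembly of the base and leave the finished particle. At the brightest probe sets, Psmd5 had the largest difference of all subunits from medium mice. High arrays read 9.09, 9.38, 9.18, 9.29 and 9.13, low arrays ran from 8.89 over a median of 9.04 to 9.20, and medium arrays from 8.47 over 9.02 to 9.20. All 5 high arrays were above both group means. The difference was 0.25 ± 0.08 (SE) from medium, a fold of 1.19 (limma p 0.00510, adjusted 0.200), and 0.17 ± 0.09 from low (p 0.0612, adjusted 0.629). The lowest array was medium replicate 9, and without it the difference from medium was 0.21 (adjusted 0.168).

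Striatum markers moved against Psmd5: over 41 arrays its level had an r of -0.72 with their mean, and -0.49 without medium replicate 9. The r of -0.72 was the lowest of all tested subunits, whose median r was -0.19. The marker mean was 6.92 to 7.19 in high, 7.14 to 7.35 in low and 7.09 to 8.53 in medium arrays, and its part in the result was not tested. All 5 tested striatum markers had lower means in high mice in both comparisons. Psmd9 differed by 0.039 ± 0.060 from low and 0.11 ± 0.06 from medium, and by -0.069 ± 0.048 in medium minus low. For Psmd10, also known as the oncoprotein gankyrin, the differences were -0.020 ± 0.085, 0.084 ± 0.079 and -0.10 ± 0.07. Limma adjusted p for both genes were between 0.415 and 0.998. Psmc3ip, the gene that is no subunit, differed by 0.0013 and -0.011 from low and medium.

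The subunits were steadier within groups than most genes. Their median within-group SD was 0.087, against 0.17 for all tested probe sets and 0.13 for the 11260 brightest of them. The widest after Psmc4 was Psmd13 at 0.20, and 98.7% of tested probe sets had a larger SD than Psmb4. With these spreads the SE of a subunit's difference from low had a median of 0.056.

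How subunits varied together over the 41 arrays is a description, since the arrays share normalization and groups. Among the 595 pairs of subunits, 421 had an r above 0, 41 an r above 0.5 and 30 an r below -0.3. The median r was 0.16, against 0.0030 for pairs of all 11218 tested genes. Core genes were closest to each other, with a median of 0.30, while non-ATPase genes had 0.10 and ATPases 0.042. After the means of the spike-in sets were taken out, the medians were 0.11 for all subunits and 0.24 for the core. The value depends on scaling: with arrays centred on their medians it was 0.53, and 0.12 for all genes, and with no normalization 0.92 and 0.78. For tested genes brighter than the median gene it was 0.24 with centring and 0.86 with no normalization, and 0.0007 under quantile normalization.

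The closest pair was Psmb3 with the catalytic Psmb6, at an r of 0.73. Psma2 and Psma3, alpha ring genes, followed at 0.71, and Psmb2 with the lid gene Psmd8 at 0.70. The promoters of Psmb3 and Psma2 are printed above with their CCAAT boxes. A CCAAT box was also found for Psma3, but not for Psmb6. The subunits had it in 40.6% of promoters against 41.1% of all, and a link with the correlations was not tested. Across parts of the complex, Psmd6 went with Psma1 (0.66), the chaperone gene Psmd5 (0.66) and the catalytic Psmb5 (0.64), and Psmd5 with Psma4 (0.66). Within the lid, Psmd11 and Psmd14 had an r of 0.64. Psmd13 went against Psma3 (-0.60), Psmc6 (-0.51) and Psmd12 (-0.48), and Psma5 against Psma1 (-0.47). Psma5 had the lowest median r with the other subunits, -0.17, and Psma2 the highest, 0.36.

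**Figure D4:**
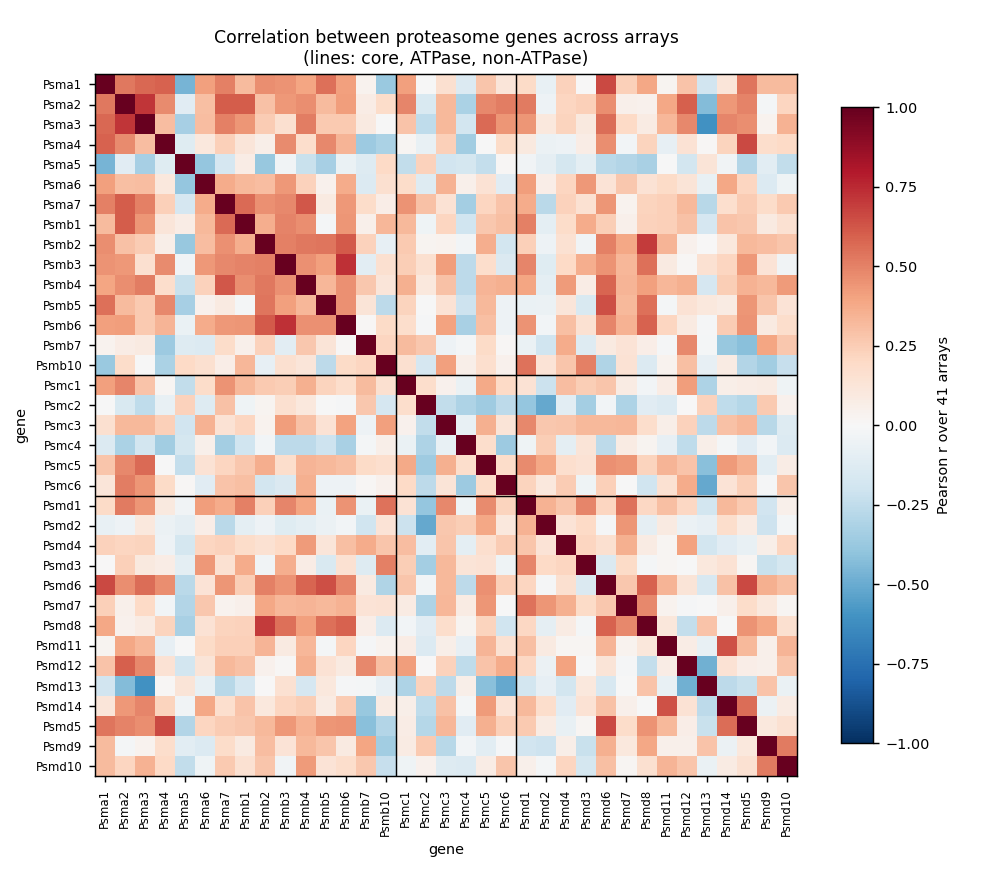
Pearson r over 41 arrays between the 35 tested subunits, with lines between core, ATPase and non-ATPase genes. Most core genes correlate above 0 with each other, while Psma5, Psmc2, Psmc4 and Psmd13 show mostly values near or below 0; their median r with the other subunits are -0.17, -0.092, -0.11 and -0.079.

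Where a gene had more than 1 tested probe set, the next brightest was compared with the one used. This was possible for 16 genes. The difference had the same sign in 12 of 16 for high minus low, 10 of 16 for high minus medium and 7 of 16 for medium minus low. The correlation of the 2 probe sets over the arrays had a median of 0.24, from -0.16 for Psmc6 to 0.75 for Psmb3. The 2 probe sets were close for Psmb3, at 0.10 and 0.097 from medium, and for Psma7, at 0.055 and 0.097. Psmb1 and Psmc6 disagreed, at 0.098 and -0.16 for the former and 0.053 and -0.13 for the latter. Over the next brightest probe sets the median difference was 0.041 from low and 0.013 from medium, against 0.042 and 0.054 for those used. In medium minus low it was 0.048 with 11 of 16 above 0, against -0.024 for those used, so that the direction turned there. Psmd5, Psmd14, Psmb5, Psmb2 and Psmc5 had no other tested probe set, so no such comparison exists for them.

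**Figure D5:**
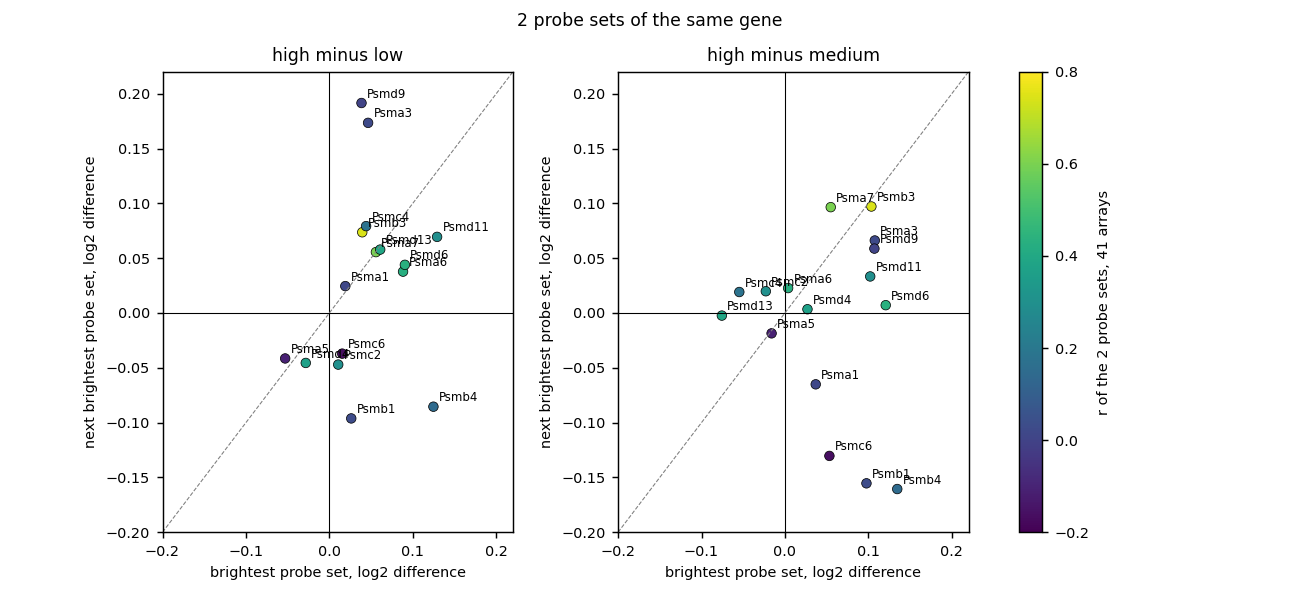
Log2 difference at the brightest probe set (horizontal) against that at the next brightest (vertical) for 16 subunits, coloured by the r of the 2 probe sets over 41 arrays, with a dashed line of equality. Psmb4 and Psmb1 lie at the lower right of both panels, above 0 on one probe set and below 0 on the other.

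Genes that serve the proteasome were read from lists, and 0 of them passed limma's test in any comparison. Of 6 assembly factors, 4 had a higher mean in high than in low mice (median 0.035) and 5 a higher mean than in medium mice (0.084). Psmg1, which helps to build the alpha ring, differed by 0.17 ± 0.06 (SE) from low (limma p 0.0112, adjusted 0.544) and 0.19 ± 0.06 from medium (p 0.00287, adjusted 0.183). Psmg3, its fellow alpha ring chaperone, differed by 0.12 ± 0.13 and 0.12 ± 0.12. Pomp, which is known to place the beta subunits, differed by -0.029 and 0.054.

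Of 4 activators and inhibitors of the core, 2 were above 0 in each comparison with high mice and 1 in medium minus low. Psme4, an activator of the nucleus, differed by -0.19 ± 0.11 and -0.19 ± 0.10 (limma adjusted p 0.669 and 0.417), and Psme3, another nuclear activator, by 0.073 and 0.13. Of 9 proteasome-associated receptors and deubiquitinases, 4 and 5 were above 0. Uchl5, a deubiquitinase of the regulatory particle, differed by 0.10 ± 0.07 and 0.12 ± 0.07, and the shuttle factor Ubqln4 by -0.10 ± 0.10 and -0.24 ± 0.09 (adjusted 0.828 and 0.279). The ubiquitin list held 6 genes, and 1 was matched to a probe set with 1 symbol: Uba6, an enzyme that activates ubiquitin, which differed by 0.047 ± 0.099 and 0.21 ± 0.09 (adjusted 0.937 and 0.332).

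Regulators of proteasome transcription had 2 of 7 above 0 against low (median -0.0057) and 3 of 7 against medium (-0.025). Nfe2l1, the factor known to raise proteasome genes when the proteasome is short, differed by -0.065 ± 0.078 and -0.093 ± 0.073, and Nfe2l2, which answers to oxidants, by 0.059 ± 0.091 and 0.14 ± 0.09. Bach1, which competes for the same promoter letters, differed by 0.11 ± 0.06 and 0.11 ± 0.06. Limma adjusted p for these were between 0.437 and 0.906. Interferon response genes had 1 of 11 above 0 against low (median -0.11) and 3 of 11 against medium (-0.068). H2-K1 and Tapbp, of antigen presentation, differed by -0.18 ± 0.12 and -0.15 ± 0.10 from low, and Tap2 by -0.14 ± 0.07 from medium (adjusted 0.715, 0.714 and 0.406).

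Heat shock and unfolded protein response genes, the other arm of protein quality control, were above 0 in 19 of 21 against low (median 0.23) and 18 of 21 against medium (0.24). At an unadjusted p under 0.05 there were 14 and 13, beside 8.16% and 13.2% of all tested probe sets, and the smallest adjusted p were 0.490 and 0.0985. Hspe1, a mitochondrial chaperonin, differed by 0.27 ± 0.06 (SE) from medium (limma p 7.88e-05, adjusted 0.0985). Of the other cell type markers, 4 of 8 microglial genes were above 0 against low and 8 of 8 against medium, with medians of 0.0042 and 0.035. Oligodendrocyte markers had 1 of 4 and 0 of 4 above 0, with medians of -0.044 and -0.051. Astrocyte markers had 3 of 5 and 3 of 5 (0.0004 and 0.023), and endothelial markers 1 of 4 and 2 of 4 (-0.038 and 0.045). Hippocampal neuron markers had 4 of 8 and 5 of 8 above 0, with medians of 0.034 and 0.082. Their mean ran from 7.95 over a median of 9.48 to 9.62 in medium arrays. In high arrays it ran from 9.41 over 9.46 to 9.54, so the median array was not higher in high than in medium mice. All 8 tested choroid plexus markers were below 0 in both comparisons, with medians of -1.23 and -0.996.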

How the data were processed

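The deposited table of 41 arrays holds linear probe set intensities, by the range of its values, as made by the authors; per the submitters' processing notes they used Partek and RMA, with no role stated in the sources used. Deposited array medians ran from 22.4 to 55.2, so the arrays were quantile-normalized and put on a log2(intensity + 16) scale, from the deposited intensities, in R 4.3.3. The middle array median was 33.3 in high, 42.0 in low and 43.7 in medium mice. After normalization the subunits' r with the log2 array median ran from -0.68 (Psma4) to 0.53 (Psmb7), median -0.11. With the 3 to 5 prime ratio of actin it ran from -0.56 (Psmd6) to 0.30 (Psmd14), median -0.16. The part of these measures in the results was not tested. The offset understates changes of dim genes. The brighter 22519 of 45037 probe sets other than 64 controls were tested with limma 3.58.1 over the 25 low, medium and high arrays fitted together, with Benjamini-Hochberg adjustment over all of them and a threshold of 0.05. Permutation tests of correlations used Python 3.11.15 and were two-sided, with 100000 resamples, or exact for the 7 arrays of the first spike-in set. Each array is 1 mouse, and their number limits the precision. Steps were tested on simulated data. Platform symbols of all 40 genes matched the reference table by Entrez ID.

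Spike-in sets were found by clustering 42 control probe sets; the labels name no batch. Members and lists were chosen with earlier results of these data known. Named genes were the catalytic and immunoproteasome genes, and in each comparison the 3 tested genes of each part with the smallest unadjusted p, any gene past the threshold, the outlying ones and, from each other list, up to 2 per direction by the smallest p. Psma5, Psmb2, Psmb3, Psmc4, Psmd8, Psmg3, Pomp and other genes given by value or range were named after their values were seen. Alternatives covered normalization, offset, filter, variance model, weights, arrays in the fit, spike-in sets, the replicate number, probe set and each array left out. Counting Psmc3ip as an ATPase and the correlations without medium replicate 9 were added after seeing the data.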

Additional observations from a re-analysis of the deposited data

Results flagged for a closer look

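In 4 of 80 groups of 4 to 10 arrays, 2 for each of the 40 genes, 1 array stood apart from the rest of its group, about the 1 in 20 that chance gives. Psmb2 was lowest in high replicate 1, at 9.36, with the other high arrays between 9.57 and 9.60. Psmb5 was highest in high replicate 2, at 10.61, with the others between 10.53 and 10.55. Psmb8 was highest in high replicate 5, at 6.05, with the others between 5.501 and 5.571, below the level needed for a test. Psmd2 was lowest in low replicate 5, at 10.39, with the other low arrays between 10.59 and 10.71. The other groups of 4 to 10 arrays were not set apart by this measure, and the medium group was too large for it.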

How the results depend on the processing

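The number of arrays, above all the 5 high ones, limits the precision. Under every alternative but centring, 0 subunits passed limma's test. The medians over the core, ATPase, non-ATPase and all subunits were followed under every alternative that kept the brightest probe sets. In high minus low they kept their sign under all of these. In the other comparisons the exceptions were no normalization and, in medium minus low, the ATPase and non-ATPase medians. The ATPase median of -0.004 there became 0.0107 with array weights and 0.0070 with the spike-in set as a block. It was 0.026 with the 11 arrays of bright choroid plexus markers left out, and above 0 without 6 of 25 single arrays. The non-ATPase median there was 0.0015 in the third set alone. Over the next brightest probe sets of 16 genes, the median in medium minus low was 0.048, against -0.024 for those used. In high minus low the core median of 0.039 was 0.019 without high replicate 4, the non-ATPase median of 0.044 was 0.014 without low replicate 5, and the overall median was 0.027 without high replicate 4. Scaling moved the medians. With arrays centred on their medians 9 subunits passed in high minus medium, and the core, ATPase, non-ATPase and overall medians were 0.163, 0.166, 0.147 and 0.159 against low and 0.206, 0.170, 0.160 and 0.173 against medium, while Psmb7 was 0.120 and 0.152 and Psmb10 0.069 against low. With no normalization these medians were -0.054, -0.088, -0.092 and -0.085 in high minus medium and 0.083, 0.114, 0.091 and 0.086 in medium minus low. All tested probe sets then had medians of -0.17 and 0.11. Relative to these the median over all subunits kept its sign, at 0.084 and -0.020, so its turns follow the shift of all probe sets. The ATPase median in medium minus low did not keep its sign relative to all tested probe sets. As reported it was -0.004, below their -0.0003. With no normalization it was 0.114, above their 0.1065. There, high minus medium was -0.034 for Psmb5, -0.041 for Psmb6, -0.165 for Psmb10, -0.0054 for Psmc5, -0.080 for Psmc3, -0.086 for Psmc1, -0.012 for Psmd6 and -0.0087 for Psmd14. Medium minus low was 0.083 for Psmb5, 0.067 for Psmb6, 0.086 for Psmb7, 0.095 for Psmb10, 0.040 for Psmb1, 0.047 for Psma3, 0.081 for Psmc6, 0.086 for Psmc5, 0.0095 for Psmd10 and 0.045 for Psmd9. The median correlation of subunits was 0.919 with no normalization and 0.528 with centring. The next brightest probe set gave -0.086 and -0.161 for Psmb4 against low and medium, and in medium minus low 0.059 for Psmb1, 0.107 for Psma3, 0.093 for Psmc6 and 0.133 for Psmd9. When the 11 arrays with bright choroid plexus markers were left out Psmb10 was 0.0010, -0.021 and 0.022 in the 3 comparisons and Psmc5 0.041 in medium minus low. Array weights gave Psmb7 0.0050 in medium minus low, moving inconsistent replicate 2 to the medium group gave it 0.0019 against medium, the spike-in set as a block gave Psmb10 -0.010 against medium, and the third set alone gave Psmb6 -0.0007 against low and Psmd9 0.0013 in medium minus low. Leaving out single arrays gave Psmb10 -0.041 to 0.0067 against low and -0.011 to 0.047 against medium, and Psmb7 -0.031 to 0.0069 against medium and -0.028 to 0.0080 in medium minus low. For Psmb9 with Psmb10 the correlation was 0.283 by rank, -0.020, 0.669 and 0.203 in the 3 spike-in sets and 0.271 without medium replicate 9. Psmb8 with Psmb9 was -0.178 in the second set, and Psmb8 with Psmb10 0.017 in the third set and 0.0080 without the 2 farthest arrays. The cause was not tested.

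The replicate numbers share only a number: 18 same-numbered pairs of arrays had a median r of -0.019, 1 of them over 0.1, and 1 of 25 arrays correlated best with its own number. With a replicate block 0 subunits passed, 29, 31 and 6 of 35 were above 0, and Psmb7 was 0.014 against low and 0.038 against medium and Psmb10 0.024 against low. Leaving out single arrays kept 26 to 29, 27 to 31 and 5 to 12 of 35 subunits above 0, and 1 to 4, 3 to 9 and 0 to 1 at an unadjusted p under 0.05. At that p, 1 subunit was left in high minus low without low replicates 2, 4 or 7 or high replicates 2, 3 or 4, and 4 came without low replicate 8, medium replicate 9 or high replicate 1, against 2 as reported. In high minus medium 3 were left without high replicate 4, against 6, and in medium minus low 1 came without low replicate 1 or medium replicates 3 or 12, against 0. The count above 0 in medium minus low was 10 without medium replicates 2, 7 or 9 and 12 without low replicate 8, against 6.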
